A study of Daphnia magna with 30 samples.

Results

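The 2 shortest photoperiods of a day-length experiment on Daphnia magna, 4L:20D (4 h of light and 20 h of dark) and 8L:16D (8 h of light and 16 h of dark), were set directly against each other, with no long-day control in the difference or in its error. The comparison held 12 animals of the 30 hybridised in the second experimental trial: 6 from 4L:20D and 6 from 8L:16D, in each photoperiod 2 animals (A and B) from each of 3 exposure chambers. All animals were adult females on day 21 of exposure, descended from a culture that was begun from 1 individual and kept at 16L:8D, so the groups shared 1 genotype and no treatment other than light. Each animal was homogenised whole, with whatever its brood pouch held, within an hour of lights on, and its RNA was hybridised to 1 one-colour array. The chambers of a photoperiod stood in 1 lit box, so box and photoperiod cannot be told apart.

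Daphnia are planktonic crustaceans that mostly reproduce by parthenogenesis. Day length is one of the cues by which they switch between live broods and resting eggs, alongside food and crowding, and light also sets their daily vertical movement. Both 4L:20D and 8L:16D lie on the short-day side, and the comparison between them addresses whether transcript levels still differ with day length there. Adult females moult between broods, so at any hour single animals stand at different points of the moult and brood cycle, in which cuticle, chitinase and yolk transcripts are made at different stages.

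The comparison covered 14338 DM probes. Names were held for 959 of them, and a protein name for 475. That annotation covers transcripts listed as differing from 16L:8D in either trial, so it was partly chosen on these animals, and the counts of named transcripts are no independent evidence of a direction. The probes on which the results turn are shown here as printed on the array, 5′ to 3′. Both probes for tyrosine 3-monooxygenase and both for Period are given because each pair reports on the same named protein from different stretches of sequence. Capitals mark the longest run of bases that the 2 probes of a pair share, and a probe without a partner is in lower case throughout.

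Tyrosine 3-monooxygenase, DM00246P1: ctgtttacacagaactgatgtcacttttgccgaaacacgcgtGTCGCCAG
Tyrosine 3-monooxygenase, DM06858P3: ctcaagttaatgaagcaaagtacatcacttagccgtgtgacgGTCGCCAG
Glucose dehydrogenase, DM00868P2: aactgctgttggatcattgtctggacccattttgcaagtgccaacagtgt
Chymotrypsin BI precursor, DM04058P1: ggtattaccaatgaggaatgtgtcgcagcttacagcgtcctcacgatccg
Amidating lyase 2, DM06051P3: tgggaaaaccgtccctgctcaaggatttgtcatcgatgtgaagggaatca
Rab GTPase-activating protein 1, DM05562P2: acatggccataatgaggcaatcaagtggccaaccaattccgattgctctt
Beta-centractin, DM00292P2: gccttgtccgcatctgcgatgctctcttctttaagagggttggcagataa
Small nuclear ribonucleoprotein Sm D3, DM01117P1: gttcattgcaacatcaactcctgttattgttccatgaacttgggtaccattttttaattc
Period circadian protein, DM09904P4: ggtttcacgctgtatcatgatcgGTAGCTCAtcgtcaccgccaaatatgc
Period circadian protein, DM14516P3: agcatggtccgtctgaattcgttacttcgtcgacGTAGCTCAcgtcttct

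The tyrosine 3-monooxygenase probes shared 8 bases, at positions 43 to 50 of each, counted from the 5′ end. This run was found in 3 of the 953 probes with a sequence and closed 2 of them. The Period probes shared 8 bases, at positions 24 to 31 of DM09904P4 and 35 to 42 of DM14516P3, a run found in 2 probes. Each of these probes had 50 bases except that for Sm D3, which had 60 bases and a GC content of 35%.

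Transcripts called higher in 4L:20D by unadjusted p included those for the dopamine-synthesis enzyme tyrosine 3-monooxygenase, a chymotrypsin-like gut protease and glucose dehydrogenase. Single transcripts for Rab GTPase-activating protein 1, beta-centractin, an amidating lyase of neuropeptides and the splicing protein Sm D3 were among those called lower. A transcript was called when limma gave an unadjusted p under 0.01 and the means differed at least 1.5-fold. By that rule 157 of 14338 probes were called (1.09%). Of these 56 were higher in 4L:20D (0.391% of probes) and 101 were lower (0.704%), with median differences of 0.81 and -0.84 on the log2 scale. After Benjamini-Hochberg adjustment over all probes limma called 0 at an adjusted p under 0.05. The smallest adjusted p was 0.215, which 48 probes shared, and 1261 probes had an unadjusted p under 0.05 and 386 an unadjusted p under 0.01. The called transcripts are thus those with the smallest unadjusted p, none of which passed the adjusted threshold. The balance of directions rested on single chambers, with 100 higher and 58 lower calls without chamber 3 of 4L:20D, 85 and 68 without chamber 2, and 38 and 143 without chamber 1. A fit on the 6 chamber means, in which animals of a chamber count once, called 181 probes (74 of them lower), of which 89 were among the 157. As whole animals were used, fewer cells of a type and less RNA per cell cannot be told apart.

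Differences among called transcripts were modest in size. Of the 157, 46 differed at least 2-fold (17 higher and 29 lower). By the means alone 1072 probes differed at least 2-fold and 368 at least 4-fold (196 higher and 172 lower in 4L:20D), of which 2 were called, both lower: DM09947P1 (hypothetical protein, -3.80) and DM06832P1 (uncharacterized protein, -3.73). These were singled out after their values were seen. A probe is called detected on an array where the scanner software marked it as well above background, and DM09947P1 was detected in 1 animal of 4L:20D and 5 animals of 8L:16D. DM06832P1 lay between -2.23 and -1.37 with a median of -1.56 in 5 of the 4L:20D animals, 1 spot having been set aside as an outlier, and between -2.15 and 4.96 with a median of 2.86 in the 6 8L:16D animals, as levels in log2 units relative to the 75th percentile of each array. The 4L:20D animals were alike, whereas the 8L:16D animals ranged from that same level to far above it. Across the array the spread differed far less: the median SD was 0.33 among the 4L:20D animals and 0.41 among the 8L:16D animals, and 35.5% of probes had the larger SD in 4L:20D.

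The 3 chamber means of 4L:20D lay wholly above or below those of 8L:16D for 55 of the 56 higher and 99 of the 101 lower calls, against 2441 of all probes (17.0%). All 6 animals lay apart from the other 6 for 21 higher and 13 lower calls, against 164 probes in all (1.14%). Non-overlapping groups were in part what the call selected for, so these shares describe the calls and do not test them.

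**Figure D1:**
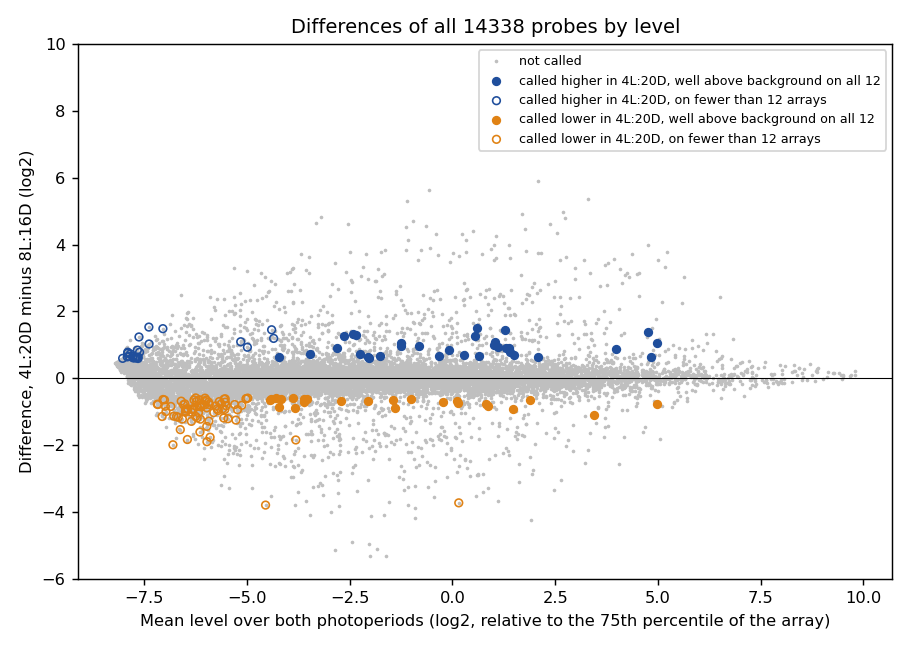
Difference of each of the 14338 probes (vertical axis, log2, 4L:20D minus 8L:16D) against its mean level over both photoperiods (horizontal axis, log2 relative to the array's 75th percentile). Grey points were not called; blue points are the 56 called higher in 4L:20D and orange points the 101 called lower, filled where the probe was detected on all 12 arrays and open where it was detected on fewer. Most open orange points sit at the dim end, and most of the points farthest from 0 are grey.

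Many lower calls were dim. Detected on all 12 arrays were 32 of the 56 higher calls and 24 of the 101 lower calls. For 59 of the lower calls no 4L:20D array was well above background, so that only a bound on the difference was measured, which reached 1-fold for 19 and 1.5-fold for 3. None of the 12 arrays detected 17 of the higher and 3 of the lower calls. At least 1 array of each photoperiod detected 36 higher and 42 lower calls. Detection moved with photoperiod over the whole array, with 11077 to 12111 probes detected per animal of 4L:20D (median 11535.5) and 11887 to 12895 per animal of 8L:16D (median 12187). The mean difference was -725 probes (exact permutation test of 6 chambers, two-sided p = 0.1, the smallest that 3 against 3 allows), and within the slides that carried both photoperiods it was -859, -784 and -185. Here and below, the first and second of these slides held a single animal of each photoperiod. Their values therefore compare single animals, and only the third slide held more. The spike-in control probes averaged 0.46 to 0.76 (median 0.54) on 4L:20D arrays and -0.01 to 0.49 (median 0.23) on 8L:16D arrays on the log2 scale, a difference of 0.34 (exact permutation p = 0.1) that was 0.08, 0.44 and 0.27 within slides. The part of detection or spike-in level in the calls was not tested. With the spike-in level as a covariate 46 probes were called, and with every array scaled to its spike-ins 813 were, 4 higher and 809 lower, a scaling that moved the median over all probes to -0.35.

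Among the higher transcripts, tyrosine 3-monooxygenase was represented by 2 probes of different sequence. The enzyme, also called tyrosine hydroxylase, catalyses the rate-limiting step from tyrosine to dopamine, and in arthropods its product also feeds the tanning and darkening of new cuticle. On DM00246P1 the level was -3.68 at the lowest, -1.72 at the median and -1.20 at the highest in 4L:20D animals, and -3.99, -3.19 and -2.58 in 8L:16D animals. Of the 4L:20D animals 5 lay above every 8L:16D animal and the other, animal B of chamber 2, lay at -3.68 among them. The difference was 1.25 (SE 0.38, 95% interval 0.39 to 2.11), or 2.38-fold, with a limma adjusted p of 0.359.

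DM06858P3, the other probe for this enzyme, gave the same picture. Its lowest, median and highest levels were -3.20, -1.65 and -0.67 in 4L:20D animals and -3.68, -3.10 and -2.09 in 8L:16D animals. The lowest 4L:20D animal was again animal B of chamber 2, and the groups overlapped through it and through animal A of the same chamber, at -2.13. The difference was 1.28 (SE 0.40, 95% interval 0.39 to 2.18), or 2.44-fold, with a limma adjusted p of 0.370. Within the 3 shared slides the differences were 1.30, 0.88 and 1.91 on DM00246P1 and 1.93, 1.26 and 1.71 on DM06858P3. Both calls rested close to the threshold: each was lost on leaving out chamber 1 or 3 of 4L:20D or any chamber of 8L:16D, and was kept without chamber 2 of 4L:20D. Over all alternatives the call on DM00246P1 was kept in 11 and lost in 22. That on DM06858P3 was kept in 13 and lost in 20. In the photoperiods outside the comparison the median level on DM00246P1 was -3.82 at 12L:12D, -2.33 at 16L:8D and -2.77 at 20L:4D, so that the median at 4L:20D was above those of the other 4 photoperiods.

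Chymotrypsin BI precursor, a serine protease of the gut that cuts dietary protein, was the only one of the 27 named calls to be kept in every alternative tried. Levels on DM04058P1 were 4.77, 5.41 and 6.47 (lowest, median and highest) in 4L:20D animals against 3.05, 4.35 and 4.60 in 8L:16D animals. Every 4L:20D animal was above every 8L:16D animal, the nearest pair being 4.77 and 4.60. The difference was 1.40 (SE 0.29, 95% interval 0.76 to 2.04), or 2.63-fold, with a limma adjusted p of 0.215, and the call was kept in 33 of 33 alternatives. Within the shared slides the difference was 0.37, 0.85 and 1.66, the first of these short of 1.5-fold. Jonah 65Aiv, named after a family of midgut serine proteases of Drosophila, was also called, at 0.74 (SE 0.22) on DM02831P3. Its levels were -3.61, -3.10 and -2.61 in 4L:20D animals and -4.30, -3.78 and -3.38 in 8L:16D animals, and its difference within slides was 0.245, 0.23 and 0.84. The 2 groups overlapped, although all 6 4L:20D animals lay above the 8L:16D median, and the call was lost on leaving out chamber 2 or 3 of 4L:20D or chamber 1 or 2 of 8L:16D.

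Glucose dehydrogenase, which oxidises glucose and in insects takes part in cuticle formation and immune encapsulation, had the smallest unadjusted p of the named transcripts. On DM00868P2 the level was -2.75, -2.30 and -2.10 in 4L:20D animals and -3.64, -3.23 and -2.93 in 8L:16D animals, with no overlap. The difference was 0.91 (SE 0.13, 95% interval 0.61 to 1.20), or 1.87-fold, with a limma adjusted p of 0.215. Within the shared slides it was 1.31, 1.15 and 0.63. The order continued outside the comparison, as a description: medians were -4.09 at 12L:12D, -4.67 at 16L:8D and -4.73 at 20L:4D. Other probes named glucose dehydrogenase did not follow it, with -0.21 (95% interval -1.33 to 0.91) on DM11070P3 and 0.16 (95% interval -0.43 to 0.74) on DM12607P4. The call was lost with background correction by normexp, where the difference was 0.52, and with scaling to the spike-ins, where it was 0.57.

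A serine threonine-protein kinase (DM04908P1, 1.45, SE 0.38) and a transcript annotated only as Chromosome 7 scaf14703 (DM05098P2, 1.19, SE 0.27) completed the 7 named higher calls. Both were detected in all 6 animals of 4L:20D and in 4 of 8L:16D. On DM05098P2 the animals lettered A stood at -3.39, -2.67 and -3.20 in 4L:20D and at -5.18, -6.11 and -6.05 in 8L:16D. Those lettered B stood at -4.13, -4.06 and -5.10 against -4.62, -3.72 and -4.02. The difference on DM05098P2 thus came from the A animals, and its SE leaves out the spread between letters, which are only labels. Within slides that difference was 1.79, 1.98 and 0.17. The kinase lay between -5.10 and -3.21 with a median of -3.36 in 4L:20D animals and between -6.57 and -3.75 with a median of -4.85 in 8L:16D animals. The kinase difference within slides was -1.35, 1.38 and 3.08, so it turned sign on 1 slide, which held a single animal of each photoperiod. Its call was lost without chamber 2 or 3 of 4L:20D or chamber 3 of 8L:16D, and that of DM05098P2 without chamber 2 of 4L:20D. Among transcripts without a protein name, DM11328P1 (1.05), DM11754P1 (0.92) and DM11399P1 (1.32) had no overlap between the 6 animals of each photoperiod, and on DM08481P1 (1.00) the groups overlapped. On DM11754P1 the 4L:20D animals lay within 1.66 to 1.98, and the 8L:16D animals spread from 0.09 to 1.53.

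Of the transcripts lower in 4L:20D, 8 had a protein name and met the rule for naming. Peptidyl-alpha-hydroxyglycine alpha-amidating lyase 2 carries out the final step that gives many neuropeptides their active amidated end. On DM06051P3 its levels were -0.02, 0.47 and 0.75 in 4L:20D animals and 0.36, 1.47 and 1.74 in 8L:16D animals. Of the 8L:16D animals 4 stood at 1.47 or above, and the other 2, animal B of chamber 1 at 0.55 and animal B of chamber 2 at 0.36, stood among the 4L:20D animals. The difference was -0.77 (SE 0.21, 95% interval -1.24 to -0.30), 1.71-fold lower, with a limma adjusted p of 0.284. The call was lost without chamber 2 or 3 of 4L:20D or chamber 1 of 8L:16D.

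Rab GTPase-activating protein 1, which switches off Rab proteins that steer vesicles, differed by -0.79 (SE 0.15) on DM05562P2. Levels were -6.02, -5.73 and -5.33 in 4L:20D animals against -5.09, -4.99 and -4.47 in 8L:16D animals. The groups did not overlap, and the probe was detected in 3 animals of 4L:20D and 6 of 8L:16D. Within slides the difference was -0.86, -0.89 and -0.82, and the limma adjusted p was 0.215. The call was lost with normexp, where the difference was -0.13, and after quantile normalization, where it was -0.66.

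Beta-centractin, the actin-related protein of the dynactin complex that links cargo to dynein, differed by -0.70 (SE 0.14) on DM00292P2, with levels of -4.35, -3.91 and -3.77 in 4L:20D animals and -3.68, -3.22 and -3.10 in 8L:16D animals. All animals of the photoperiods lay apart. Within slides the difference was -0.53, -0.75 and -0.72, and the limma adjusted p was 0.215. The call was lost with normexp (-0.26), with the spike-in covariate (-0.44) and after adjustment for where each animal lay on the first 2 axes of spread within photoperiods (-0.58). A trafficking protein particle complex subunit, which tethers vesicles at the Golgi, differed by -0.60 (SE 0.16) on DM04086P1. The 48 kDa subunit of the oligosaccharyltransferase that glycosylates proteins in the endoplasmic reticulum differed by -0.67 (SE 0.18) on DM02366P3. On both probes the animals overlapped, with all 6 of 4L:20D below the 8L:16D median. Both calls were lost without chamber 2 or 3 of 4L:20D, and also without chamber 2 of 8L:16D for DM04086P1 or chamber 3 of 8L:16D for DM02366P3.

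Small nuclear ribonucleoprotein Sm D3, a core protein of the spliceosome, differed by -0.63 (SE 0.18) on DM01117P1. Its levels were -4.19, -3.98 and -3.47 in 4L:20D animals and -3.73, -3.34 and -2.90 in 8L:16D animals. The groups overlapped by 1 animal of 4L:20D, animal A of chamber 1 at -3.47. The difference was 0.01, -0.56 and -0.63 within slides, the limma adjusted p was 0.338, and the call was lost on leaving out chamber 2 or 3 of either photoperiod. Over all alternatives this call was kept in 14 and lost in 19.

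The remaining named lower calls were too dim in 4L:20D for a fold change. UPF0364 protein (DM06277P1) was detected in 0 animals of 4L:20D and 6 of 8L:16D and was at least 1.35-fold lower, the bound being taken against the lowest signal well above background on each array. A pre-mRNA-processing factor of the spliceosome (DM02299P2) was at least 1.09-fold lower with the same detection, with the call lost without chamber 2 of 4L:20D or chamber 2 or 3 of 8L:16D. Of the lower calls without a protein name, DM10354P1 was at least 1.44-fold and DM00233P3 at least 1.49-fold lower. DM00738P2 (-0.81) was detected in 3 animals of 4L:20D and 6 of 8L:16D. DM00052P3 (-0.82) was detected in all 12, lying between 0.21 and 0.88 in 4L:20D animals and between 0.71 and 1.72 in 8L:16D animals.

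**Figure D2:**
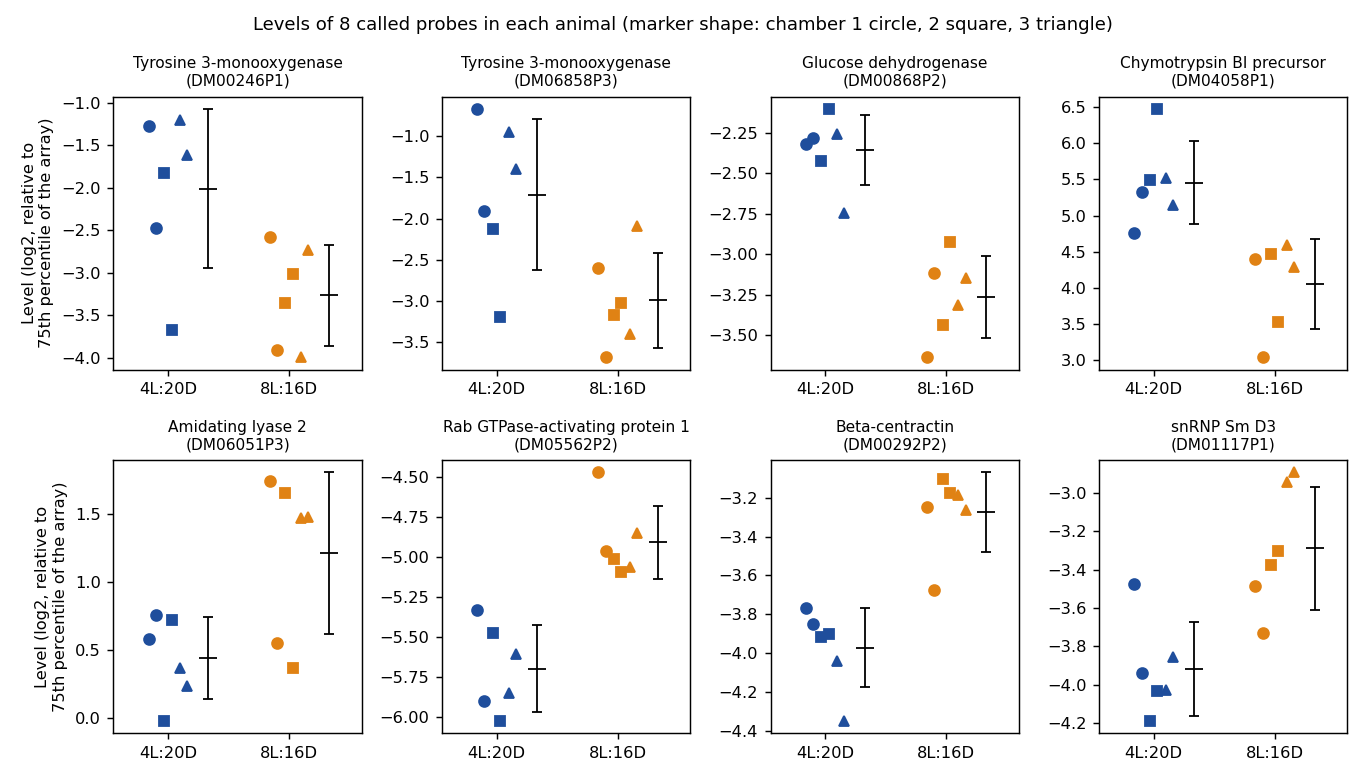
Level of 8 called probes in each animal (vertical axes, log2 relative to the array's 75th percentile, each panel with its own scale), 4L:20D in blue on the left and 8L:16D in orange on the right of each panel. Circles, squares and triangles are chambers 1, 2 and 3, and the black bar beside each group is its mean with SD over 6 animals. The 6 animals of each photoperiod lie apart for glucose dehydrogenase, chymotrypsin BI, Rab GTPase-activating protein 1 and beta-centractin; 1 animal of 4L:20D falls among those of 8L:16D for DM00246P1, and 2 animals of 8L:16D fall among those of 4L:20D for amidating lyase 2.

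Named gene groups were then examined for shifts too small for single calls. These groups are described by their counts and medians beside those of all probes, for which 52.1% of differences were below 0 and the median was -0.02. Over the 959 annotated probes the median was -0.16, 63.4% were below 0, and 16 were called higher and 30 lower. The groups are lists of names and are not independent of that annotation.

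Probes for the translation machinery lay mostly a little below 0 in the difference. Of 17 probes for translation initiation factors and tRNA ligases 16 were below 0, with a median of -0.33, and 0 were called. Subunits of initiation factor 3, which holds the small ribosomal subunit ready for messenger RNA, gave -0.52 (SE 0.15) on DM02194P1, -0.49 (SE 0.16) on DM03670P3 and -0.40 (SE 0.14) on DM01365P3. Glycine--tRNA ligase, which loads glycine on its tRNA, gave -0.53 (SE 0.17) on DM00498P1. On DM02194P1 levels were 1.96, 2.11 and 2.56 in 4L:20D animals and 2.42, 2.70 and 3.08 in 8L:16D animals, with every 4L:20D animal below the 8L:16D median. Within slides the group's median was 0.12, -0.36 and -0.46. The direction did not hold on 1 of 3, a slide with a single animal of each photoperiod. It was below 0 with every scaling tried, at -0.33 after quantile normalization, -0.17 with normexp and -0.67 scaled to the spike-ins.

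Proteasome probes lay mostly below 0 too. The proteasome is the barrel-shaped protease that degrades ubiquitin-tagged proteins. Of 23 probes 21 were below 0, the median was -0.29, and 1 was called lower, a 26S regulatory subunit on DM05329P3 that was detected in 0 animals of 4L:20D and 2 of 8L:16D. Brighter probes for subunits showed differences such as -0.46 (95% interval -0.79 to -0.12) for alpha type-1 on DM00268P2 and -0.35 (95% interval -0.64 to -0.06) for alpha type-4 on DM02033P1. Chamber means did not overlap for 13 of the 23, against 17.0% of all probes. As annotated probes were partly chosen on these animals, and several probes share a subunit name, this share describes the list and does not test it. Medians within slides were -0.22, -0.15 and -0.24. Over the 6 animals the median of the group, relative to each probe's mean, lay between -0.26 and 0.07 in 4L:20D and between -0.12 and 0.30 in 8L:16D, so the animals overlapped.

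Chaperonin and heat shock proteins, which fold new proteins, had a median of -0.25 with 13 of 16 probes below 0. The 1 lower call was T-complex protein 1 subunit beta on DM01996P4, detected in 0 animals of 4L:20D and 3 of 8L:16D, while 3 other probes for that subunit gave -0.20, -0.24 and -0.37 and were not called. Spliceosome proteins had a median of -0.20, with 13 of 16 probes below 0 and the 2 calls named above. The spliceosome median within slides was 0.39, -0.11 and -0.13. The direction turned on 1 of 3, a slide with a single animal of each photoperiod. A probe now annotated as DNA damage-binding protein 1, which is in the list through its older name, splicing factor 3b subunit 3, gave -0.48 (SE 0.10) on DM02269P1 with the 6 animals of each photoperiod apart, short of 1.5-fold. With normexp the chaperonin and spliceosome medians were both -0.07. With the spike-in level as a covariate the chaperonin median was 0.06 and the spliceosome median 0.03. Ribosome biogenesis had a median of -0.04 with 15 of 24 below 0 (0.22 with that covariate), and within slides the median was above 0 on all 3 (0.19, 0.12 and 0.01). Its 1 lower call was an RRP12-like protein on DM01460P3, which was detected in 0 animals of 4L:20D and 2 of 8L:16D. That call was lost without chamber 1 or 3 of 4L:20D or chamber 2 or 3 of 8L:16D, and that of DM01996P4 without chamber 1 or 2 of either photoperiod.

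**Figure D3:**
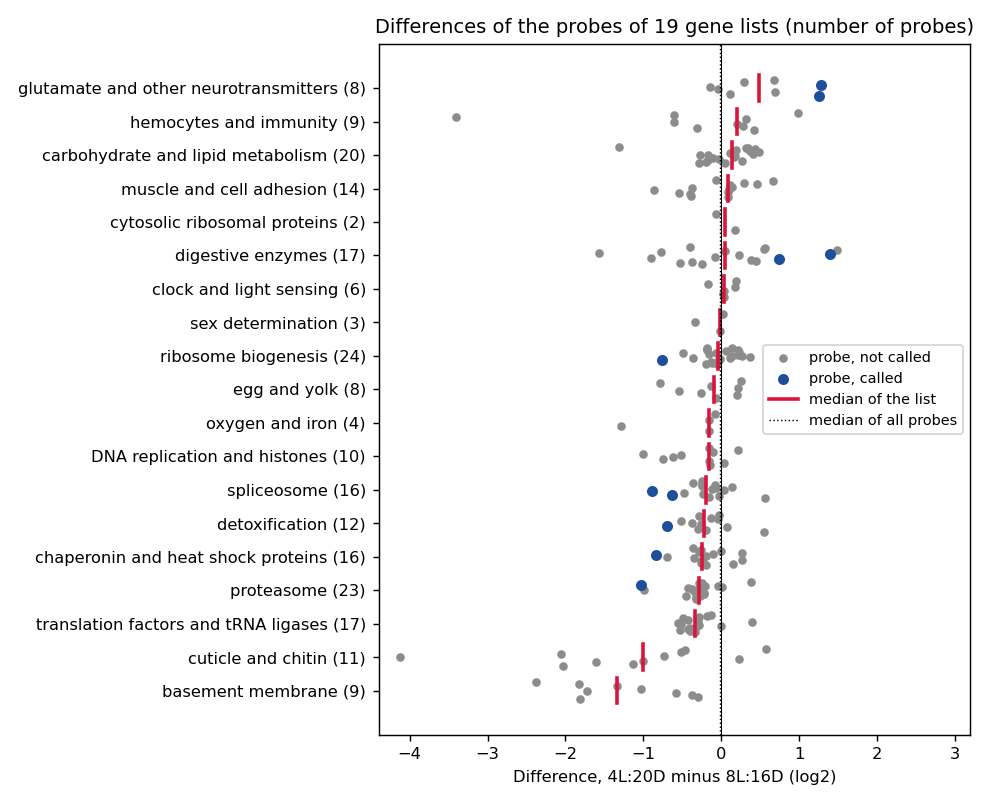
Difference of each probe (horizontal axis, log2, 4L:20D minus 8L:16D) in 19 gene lists, one row per list with its number of probes in brackets. Grey points were not called, blue points were called, red bars are list medians and the dotted line is the median of all probes. Translation factors, proteasome, chaperonin and spliceosome rows sit a little below 0 with narrow spread, and cuticle and basement membrane rows are wide and low. The neurotransmitter row has the highest median, 0.49, with 2 of its 8 probes being for 1 enzyme.

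Cuticle and collagen transcripts had the largest median differences and the widest spread. The 11 cuticle and chitin probes had a median of -1.01 with 9 below 0, and the 9 basement membrane probes a median of -1.34 with 9 below 0, and 0 were called in either list. A chitinase on DM07224P1, an enzyme that breaks down old cuticle at the moult, gave -4.13 with an SE of 1.98 (95% interval -8.55 to 0.30). Its level was -7.57 at the lowest, -4.88 at the median and 3.19 at the highest in 4L:20D animals, against -5.55, 1.83 and 3.14 in 8L:16D animals. Animal B of chamber 2 was the only 4L:20D animal above 0, while in 8L:16D animals A and B of chamber 3, A of chamber 1 and A of chamber 2 were above 0.

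Collagen IV, the main network collagen of basement membranes, was high in nearly the same animals. On DM05282P3 the level was 1.81 in animal B of chamber 2 and between -2.65 and -0.42 in the other 5 animals of 4L:20D. In 8L:16D it was 3.19, 2.35, 1.98 and 0.09 in the same 4 animals as the chitinase and -1.99 and -2.52 in the other 2. The difference was -1.73 (SE 1.01, 95% interval -3.98 to 0.52). The smallest p of the basement membrane list was on DM05241P2, for collagen alpha-1(XVIII), at -0.58 (95% interval -1.11 to -0.05). Over the whole lists, animals ranged from -1.63 to 1.12 for cuticle and from -1.19 to 1.87 for basement membrane in 4L:20D, and from -0.91 to 1.5 and from -1.18 to 2.20 in 8L:16D. The high animals numbered 1 in 4L:20D and 4 in 8L:16D. With the animals' positions on the 2 main axes of spread as covariates, the medians were -0.32 for cuticle and -0.36 for basement membrane. Those positions were computed from the same expression values and differ between the photoperiods, so smaller medians were to be expected. The reason for the list differences was not tested. Without 1 chamber at a time the cuticle median lay between -1.36 and -0.60 and that of basement membrane between -2.08 and -0.77, the highest of these without chamber 3 of 8L:16D and the lowest without chamber 1 of 8L:16D.

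**Figure D4:**
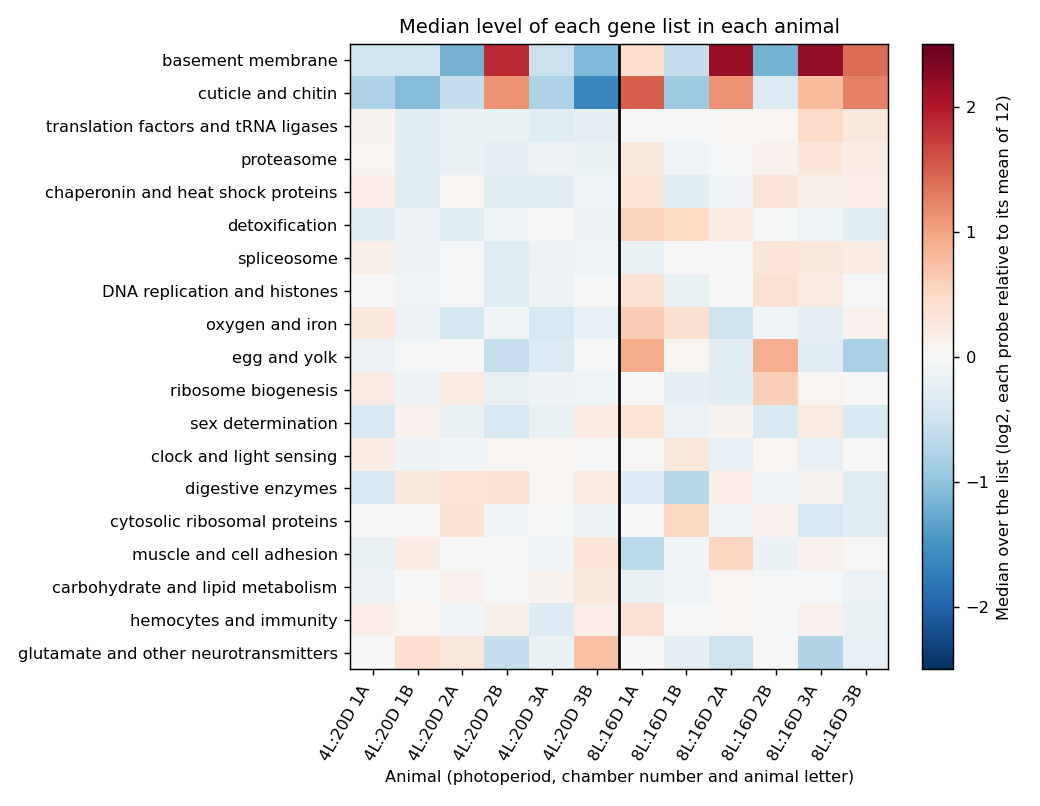
Median level of each gene list in each animal (colour, log2, each probe relative to its mean over the 12 animals; red is higher), with the 6 animals of 4L:20D left of the black line and the 6 of 8L:16D right of it. In the basement membrane and cuticle rows 1 column of 4L:20D (chamber 2 animal B) and 4 of 8L:16D are red, and most other rows are pale.

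The glutamate and other neurotransmitters list had the highest median, 0.49 over 8 probes, of which 6 were above 0 and 2 called, both tyrosine 3-monooxygenase. These 2 probes of 1 enzyme enter the median separately, and the median of the other probes was not computed. Glutamine synthetase, which turns glutamate into glutamine, gave 0.69 (SE 0.24, 95% interval 0.16 to 1.21) on DM01623P1 and was not called. An ionotropic kainate glutamate receptor gave 0.68 with a wide interval of -0.64 to 2.00 on DM10810P1. Glutamate decarboxylase, which makes the transmitter GABA, gave 0.12 (95% interval -0.34 to 0.57) on DM00966P3, and the high-affinity choline transporter -0.15 (95% interval -0.55 to 0.25) on DM05417P2. The list's median stayed above 0 with every scaling, at 0.15 when scaled to the spike-ins, and within slides it was 0.64, 0.83 and 0.60. It was smaller without chamber 3 of 8L:16D (0.20) or chamber 1 of 4L:20D (0.32), and it was 0.12 with the animals' positions on the 2 main axes of spread as covariates.

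The 17 digestive enzyme probes had a median of 0.05, with 2 called higher (chymotrypsin BI and Jonah 65Aiv) and 8 below 0. The list was made by matching words in the names, so it also holds lysosomal enzymes, which are not gut enzymes. Among these a lysosomal alpha-glucosidase, which frees glucose from glycogen, gave 0.56 (SE 0.17) on DM09425P2 and missed the threshold. Carboxypeptidases, which trim proteins from the end, had differences below 0 with wide intervals, of -1.56 (95% interval -5.17 to 2.04) on DM04713P2, -0.90 (95% interval -2.83 to 1.03) on DM02850P3 and -0.77 (95% interval -1.57 to 0.04) on DM04725P3. Chymase, another serine protease, gave 1.49 (95% interval -2.21 to 5.19) on DM07027P3. Starch-cutting alpha-amylase gave -0.53 (95% interval -1.44 to 0.38) on DM01884P2, -0.25 (95% interval -1.19 to 0.68) on DM00223P2 and 0.05 (95% interval -0.34 to 0.44) on DM05956P1. The list's median was -0.29 when scaled to the spike-ins and above 0 with the other scalings, and within slides it was 0.25, -0.27 and 0.32.

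Clock and light-sensing transcripts were close between the photoperiods. Period, a negative regulator in the circadian feedback loop, had levels of -2.51, -2.09 and -1.85 in 4L:20D animals and -2.73, -2.34 and -1.93 in 8L:16D animals on DM09904P4. The groups overlapped over most of their range, and the difference was 0.18 (SE 0.18, 95% interval -0.24 to 0.59). On DM14516P3 it was 0.19 (SE 0.18, 95% interval -0.21 to 0.58). All animals were taken within an hour of lights on, so a difference at other hours was not measured. Rhodopsins, the light receptors of the eye, gave -0.17 (95% interval -0.50 to 0.16) on DM12611P4 and 0.02 (95% interval -0.27 to 0.32) on DM06155P2. Arrestin, which quenches rhodopsin, gave 0.04 (95% interval -0.19 to 0.27) on DM03055P2. None of the 6 probes was called. For the rhodopsins and arrestin these intervals did not reach a 1.5-fold change, but they treat 2 animals of a chamber as separate and hold for this scaling. On DM12611P4 the difference was -0.51 when scaled to the spike-ins and -0.46 with the spike-in level as a covariate.

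Reproductive transcripts showed no call. Of 8 egg and yolk probes 0 were called and the median was -0.10. The smallest p of the list was on DM08909P1, for a chorion peroxidase, at -0.785 (95% interval -1.53 to -0.04). That probe was detected in 0 animals of 4L:20D and 1 of 8L:16D. Another chorion peroxidase probe, DM08907P2, lay between -7.41 and -2.38 in 4L:20D animals and between -8.38 and 0.30 in 8L:16D animals. Vitellogenin fused with superoxide dismutase, the yolk protein precursor of Daphnia, gave 0.20 (95% interval -0.95 to 1.35) on DM01555P3 and -0.07 (95% interval -0.67 to 0.54) on DM00375P2. Animals spread widely in this list, from -0.57 to 0.01 in 4L:20D and from -0.81 to 0.92 in 8L:16D. Of 3 sex determination probes, transformer gave -0.34 (95% interval -0.90 to 0.21) on DM06854P1 and transformer-2 gave 0.02 (95% interval -0.36 to 0.41) on DM11280P1. Of 10 probes for DNA replication and histones 8 were below 0, with a median of -0.16 and 0 called. The smallest p among them was on DM03620P2, for a DNA polymerase delta subunit, at -0.62 (95% interval -1.22 to -0.03).

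Metabolic and tissue lists had medians on both sides of that of all probes. Carbohydrate and lipid metabolism had a median of 0.14 over 20 probes with 0 called, muscle and cell adhesion 0.09 over 14 with 0 called, and hemocytes and immunity 0.20 over 9 with 0 called, all 3 medians lying below 0 when scaled to the spike-ins and that of muscle also after quantile normalization (-0.03). In the metabolism list the smallest p was on DM06370P1, for medium-chain acyl-CoA dehydrogenase, at 0.43 (95% interval 0.07 to 0.79). Phosphoenolpyruvate carboxykinase, the entry enzyme of gluconeogenesis, gave -0.03 (95% interval -0.60 to 0.54) on DM01903P2. In the muscle list it was on DM04511P3, for an Adam metalloprotease detected on no array, at 0.46 (95% interval 0.20 to 0.72). For immunity it was on DM08519P3, for a C1q-related protein, at -0.61 (95% interval -1.12 to -0.10). Of 12 detoxification probes 10 were below 0, with a median of -0.22. In that list UDP-glucuronosyltransferase on DM04941P2, which couples foreign compounds to sugar acids, was called lower. It was detected in 0 animals of 4L:20D and 5 of 8L:16D, and the call was lost without chamber 2 or 3 of 4L:20D or chamber 1 or 2 of 8L:16D. The 4 oxygen and iron probes had a median of -0.16 with 0 called. Among them hemoglobin gave -1.29 (SE 0.57) on DM01567P2. It was between -6.56 and -4.55 in 4L:20D animals and between -5.61 and -2.41 in 8L:16D animals, with 3 animals of 8L:16D (A of chamber 2, A and B of chamber 3) above every other, and it was not called. Cytosolic ribosomal proteins were represented by 2 probes for L34, at 0.17 (95% interval -0.35 to 0.70) on DM01779P4, which was detected on no array, and -0.07 (95% interval -0.53 to 0.39) on DM06389P1.

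Across all probes at once, the photoperiod means were farther apart than under any other division of the chambers, though not by much. The Euclidean distance between the mean of 4L:20D and the mean of 8L:16D over 14296 probes was 78.0 log2 units. It was the largest among the 10 ways of dividing 6 chambers 3 against 3, in which the next was 76.3 and the smallest 39.2 (exact permutation test, two-sided p = 0.1, the smallest this design allows). Single animals were far more scattered. Pairs across the photoperiods were 73.0 to 201 apart (median 161, 36 pairs), pairs from other chambers of 4L:20D 75.8 to 192 (median 150) and pairs from other chambers of 8L:16D 104 to 196 (median 155). Animals of the same chamber were no closer, at 111 to 185 in 4L:20D and 75.9 to 202 in 8L:16D (3 pairs each). For 7 of the 12 animals the nearest animal came from the other photoperiod, and for 2 it was the chamber mate.

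The first of the axes that describe spread within photoperiods over all 30 arrays held 41.3% of it, and the second 18.9%. On the first axis 4L:20D animals lay at -66.8 to 104 (mean 54.3 ± 69.4, SD, n = 6) and 8L:16D animals at -67.5 to 106.5 (mean -9.28 ± 68.6, SD, n = 6). Of the 4L:20D animals 4 stood at 81.8 or above, together with 1 animal of 8L:16D. The photoperiod means were 67.5 apart on these 2 axes alone, out of 78.0 in all. With both positions as covariates 140 probes were called, of which 60 were among the 157.

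**Figure D5:**
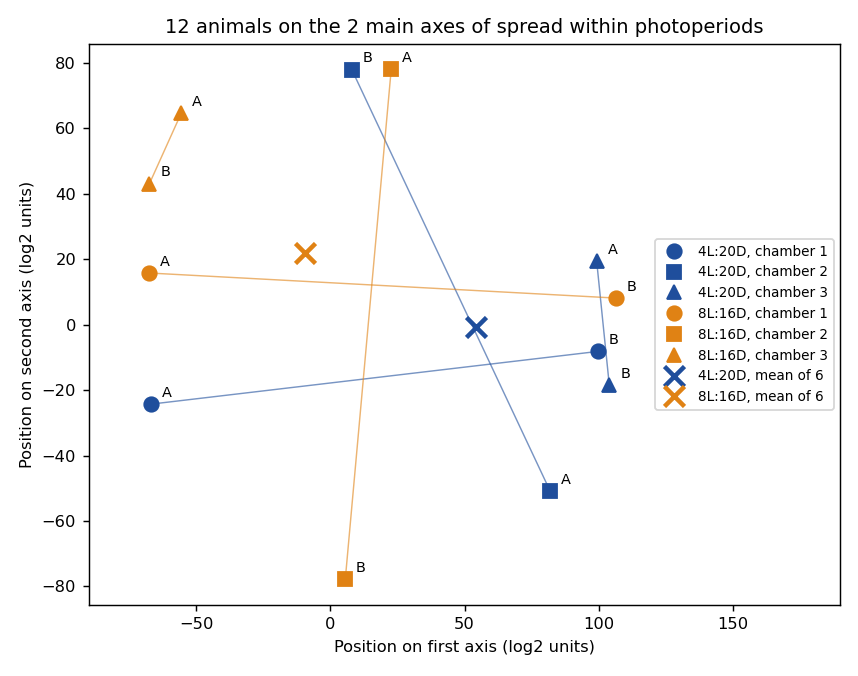
Where each of 12 animals lay on the first (horizontal) and second (vertical) axis of spread within photoperiods, both in log2 units, 4L:20D in blue and 8L:16D in orange. Marker shape gives the chamber, letters the animal, lines join chamber mates and crosses are the means of 6. The photoperiods overlap on both axes, and chamber mates are mostly far apart, except in chamber 3 of each photoperiod.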

How the data were processed

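Whole-animal RNA of 30 adults was hybridised to Agilent one-colour arrays, and the 12 arrays of 4L:20D and 8L:16D entered the comparison. The authors deposited scanner intensities, background-subtracted spot signals made by Agilent Feature Extraction, version 10.7.3.1 per the file headers and version 9.5.1 per the submitters' processing notes. They also deposited a log2 table of the same arrays, which correlated with the log2 values used here at 0.9997 or more on every array and served as an alternative.

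Each array's signals were averaged over spots of a probe, leaving out 188 spots over all arrays marked as outliers, converted to log2 and set relative to the array's 75th percentile. The table then held 14338 DM probes, and the distances used the 14296 that had no missing value among the 12 arrays. No spot was saturated. The number of arrays limits the precision. Differences, 4L:20D minus 8L:16D, came from a linear model in limma 3.58.1 (R 4.3.3) whose terms were the photoperiod, the letter of the animal and the interaction between them. Animals A and B share a chamber, so the fit's p-values treat as separate 2 animals of 1 exposure, and a fit on chamber means was run as an alternative. Distances used an exact permutation of chambers (scipy 1.17.1, numpy 2.4.6). The 12 arrays lay on 7 slides and were scanned on 1 day, and 3 slides carried both photoperiods. On the first and second of these 3, in the order given, each photoperiod had a single animal. The fit was tested on simulated data.

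Named transcripts were called probes with non-overlapping chamber means that were well above background on all arrays of at least 1 photoperiod: per direction the 12 with the smallest p that had a protein name (7 and 8 qualified) and the 4 without, plus the probe with the smallest p of each of 19 lists made by matching words in the names. These rules, the lists and the comparison were chosen with earlier results of these data known. Other members of the lists were chosen for mention after their values were seen. Tried as alternatives were 21 planned settings (designs, blocks, normalizations, filters, thresholds and left-out chambers) and 14 added after the data had been seen (spike-in covariate and scaling, and left-out animals). Normexp was run on median spot signals, with an offset of 50.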

Additional observations from a re-analysis of the deposited data

Results flagged for a closer look

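Within a photoperiod of 6 animals, a single animal stood apart from the other 5 for 5 of the named transcripts. The rule was that the gap to the nearest animal, as a share of the whole range, exceeded Dixon's 95% limit for 6 values. Chance flags about 1 in 20 groups, and 84 groups were tested, so the count is close to what chance gives.

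In 4L:20D, the serine threonine-protein kinase on DM04908P1 was at -5.10 in animal A of chamber 1, and between -3.74 and -3.21 in the other 5. In the same photoperiod the C1q-related protein on DM08519P3 was at 2.52 in animal B of chamber 2 and between 1.87 and 2.09 in the others. In 8L:16D, beta-centractin on DM00292P2 was at -3.68 in animal B of chamber 1 and between -3.26 and -3.10 in the others. The same animal held 60S ribosomal protein L34 on DM01779P4 at -6.77, against -8.32 to -7.80 in the others, on a probe that was well above background on no array of either photoperiod. Animal A of that chamber had the chitinase on DM13721P2 at -3.29 and the others lay between -4.14 and -3.84. No explanation for these animals was tested.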

How the results depend on the processing

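Against 157 calls, the count was 239 when all 30 arrays shared the spread, 249 with slide as a block over those 30, 53 with normexp background correction and 86 when probes had to be detected on 6 arrays or more. It was 46 at 2-fold and 386 with no fold threshold. In settings chosen after seeing the data it was 46 with the spike-in mean as a covariate and 813 when scaled to it. Without 1 chamber the count lay between 98 (without chamber 3 of 8L:16D) and 325 (without chamber 1 of 8L:16D). Without 1 animal it lay between 90 (animal A of 8L:16D chamber 3) and 286 (animal B of 8L:16D chamber 1), and it moved over 1.5-fold also without animal A of 4L:20D chamber 1 (249) or animal A (100) or B (257) of 4L:20D chamber 2. In every other setting the count was within 1.5-fold of 157. Of the calls, 35.7% were higher in 4L:20D; the share was 47.4% after quantile normalization, 58.5% with normexp, 0.492% scaled to the spike-ins and 59.1% in a fit on chamber means, and without 1 chamber it lay between 21.0% (chamber 1 of 4L:20D) and 63.3% (chamber 3 of 4L:20D). The cause of these shifts was not tested. At an adjusted p under 0.05 limma called 0 probes in each of 33 alternatives, with a smallest adjusted p of 0.0612 (slide as a block), against 1261 at an unadjusted p under 0.05 in the comparison as reported.

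With the replicate block 123 probes were called, 39 higher and 84 lower. Same-numbered chambers deviated with correlations of -0.18, 0.02 and -0.60, so the numbers do not pair the chambers, and no chamber correlated best with its own number.

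Of the 27 called transcripts named, 9 kept their call with normexp, 6 with the spike-in covariate and 18 in the fit on chamber means, and 2 to 9 lost it without any 1 animal. The reversals were those of 60S ribosomal protein L34 (difference of DM01779P4), at -0.14 with slide as a block over 30 arrays, -0.039 after quantile normalization, -0.27 with the spike-in covariate and -0.16 scaled to the spike-ins, for a probe well above background on no array. The distance between photoperiod means was 76.0, 52.4, 78.3 and 72.4 under quantile normalization, normexp, the deposited log2 table and the filter on dim probes, with p = 0.1 in each exact permutation test. Dim signals limit what was measured: 10160 probes were well above background on all 12 arrays and 814 on none.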

Other observations

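Within several lists single probes stood apart from the rest, and those given here were picked after their values were seen. The chitinase on DM13721P2 gave 0.58 (SE 0.17, 95% interval 0.19 to 0.96), in a list whose median was -1.01, although within slides its difference was -0.23, 0.44 and 0.80. A sulfotransferase, which makes compounds water-soluble, gave 0.54 (SE 0.17) on DM02287P2 in the detoxification list, where 10 of 12 probes were below 0, and within slides -0.40, 0.49 and 1.00. Cytochrome P450 3A40, an enzyme that oxidises foreign compounds, gave -0.37 (SE 0.12) on DM05312P3 in that list, with every 4L:20D animal below every 8L:16D animal, while the other probe of that name, DM04557P3, gave 0.08 (95% interval -0.29 to 0.45). In the muscle and cell adhesion list a probe annotated as similar to troponin I, a calcium-dependent switch of muscle, gave 0.67 (SE 0.23) on DM06174P3, and 4 probes for vinculin, which anchors actin at cell junctions, lay between -0.54 (DM01356P1) and -0.37 (DM02270P1). None of these was called. A clip-domain serine protease, of a family that acts in arthropod immune cascades, gave -3.40 with an SE of 1.73 on DM10610P1 and was detected in 2 animals of 4L:20D and 4 of 8L:16D.

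Over all 14338 probes, 0 were detected in all 6 animals of 4L:20D and in none of 8L:16D, whereas 9 were detected in no animal of 4L:20D and in all 6 of 8L:16D. Detection differed over the whole array, at a median of 11535.5 probes per 4L:20D animal and 12187 per 8L:16D animal. The lowest signal well above background was -5.91 to -5.44 on 4L:20D arrays and -6.37 to -5.90 on 8L:16D arrays. Its part in these counts was not tested.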
